A study of Mus musculus with 24 samples.

Results

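Acute phase proteins are plasma proteins whose level changes with inflammation, and 10 genes for secreted proteins of this kind were followed here out of 23420 genes in each table. They were taken by name as a functional group: the serum amyloid A genes Saa1, Saa2 and Saa3, the orosomucoids Orm1 and Orm2, the lipocalin Lcn2, haptoglobin (Hp), ceruloplasmin (Cp), the inter-alpha-trypsin inhibitor heavy chain Itih4 and the leucine-rich glycoprotein Lrg1. RNA of the whole left lung lobe was sequenced from 24 mice in 8 groups of 3. Mutants carried Sox9Cre/+ with Vangl2f/f or with Ror2f/f, at postnatal day 2 (P2) or 5 (P5), and each mutant group had its own control group, with WT as its genotype entry. The titles of the Vangl2 controls name them as controls for Vangl1/2, where Vangl1 is the close relative of Vangl2, and the mutant labels name no Vangl1 allele. Vangl2 and Ror2 belong to the planar cell polarity pathway, and the question was which transcripts change when either is removed from the lung epithelium. Cre was driven from the Sox9 locus, which is active in the distal lung epithelium and in other SOX9-expressing tissues. Whether mesenchyme, vessels and blood cells keep both genes cannot be read from RNA of a whole lobe. Whether the controls carried Cre, and whether mutants and controls were littermates, was not given in the sources used here, so p-values measure the spread between these lungs. The genotype entry of the P5 Vangl2 mutants names Ror2f/f and that of the P2 Ror2 mutants names Vangl2f/f, and the sample titles were followed instead.

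In the liver, most of these genes are switched on when interleukin 6 and interleukin 1 reach hepatocytes and act through STAT3, C/EBP and NF-kB factors. Epithelia such as that of the lung also make several of them locally, among them Saa3, Lcn2, Hp and Lrg1. Their products bind lipids, small molecules, iron carriers, hemoglobin or copper, and Lcn2 and Hp are also stored in neutrophil granules.

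The genes lie in a few places of the mouse genome (build mm10, positions from the GENCODE annotation). Saa3 (chr7:46711998-46715700), Saa1 (chr7:46740497-46742980) and Saa2 (chr7:46751790-46754313) form a cluster, and Orm1 (chr4:63344560-63348163) and Orm2 (chr4:63362449-63365878) are neighbours. Lcn2 is at chr2:32384633-32388252, Cp at chr3:19957054-20009145, Hp at chr8:109575128-109579172, Itih4 at chr14:30886476-30902353 and Lrg1 at chr17:56119678-56122001. The reference transcripts of Saa1 and Saa2 are 93.9% identical and those of Orm1 and Orm2 91.0%, so reads may be split unevenly within each pair, and the levels within a pair are uncertain. Saa3 stands apart, with 61.6% identity to Saa1.

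The 23 complete lungs held 16178031 to 21546673 gene reads each. Control replicate 1 of the P5 Ror2 comparison held reads on only part of the genome, and its values were left out on chromosomes 5 to 9 and X, so Saa1, Saa2, Saa3 and Hp have 2 controls there. Vangl2 itself was at 249 to 302 normalized counts in P2 controls against 173 to 241 in P2 Vangl2 mutants, and at 292 to 369 against 148 to 169.5 at P5 (limma adjusted p = 0.241 and 0.0604). Ror2 was at 451 to 581 against 349 to 479 at P2 and at 368 to 597 against 362 to 521 at P5 in the Ror2 comparisons (adjusted p = 0.250 and 0.692). In the P5 Vangl2 comparison, Ror2 was at 478 to 611 in controls against 273 to 541 in mutants (limma adjusted p = 0.348). Vangl2 was at 245 to 291 against 208 to 251 in the P2 Ror2 comparison and at 287 to 326 against 177 to 338 at P5 (adjusted p = 0.404 and 0.510). The genotypes were taken from the titles and were not tested with these levels. In a whole lobe, fewer cells of a type and less RNA per cell cannot be told apart. The sex of the mice was not labelled, and Xist, which is expressed in females, was above 1000 normalized counts in 1 control and 2 mutant lungs of the P2 Vangl2 comparison and in 3 and 2 at P5. It was above that level in 1 control and 1 mutant lung of the P2 Ror2 comparison and, of the lungs with a value, in 1 control and 0 mutants at P5.

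In Vangl2 mutant lungs at P2, 7 of the 10 acute phase genes rose (Saa3, Orm1, Lcn2, Hp, Itih4, Cp and Lrg1), between 2.97-fold for Cp and 59.3-fold for Saa3. The eighth gene with enough reads, Orm2, was 5.18-fold higher and did not pass (adjusted p = 0.0589). Saa1 and Saa2 were too low to be tested. All folds are on the scale of log2(normalized count + 1), which understates the change of low genes. Of all 17448 genes tested in this comparison 1.5% were called higher. All 8 tested members were higher in every mutant lung than in every control lung, against 14.6% of all genes. Their median log2 fold change was 2.41, beside 0.00 over all genes tested.

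Saa3, a serum amyloid A made outside the liver by epithelium, fat and macrophages, was low in P2 controls, at 51.6, 59.7 and 29.7 normalized counts in replicates 1 to 3. In the Vangl2 mutants it stood at 5774, 1033 and 3429.7. The lowest mutant lung lay many times above the highest control, and the mutants also differed widely from each other (log2 fold change 5.89, SE 0.58, adjusted p = 0.0248). The liver forms were barely present. Saa1, a major serum form that travels on high density lipoprotein, gave 0, 0.948 and 0.958 normalized counts in controls and 4.13, 0 and 8.15 in mutants. Its near copy Saa2 gave 0 in all 3 controls and 20.7, 0 and 1.02 in mutants. Over all 23 lungs with values on chromosome 7, Saa1 had 0 reads in 15 and at most 10 reads in any, and Saa2 had 0 reads in 19 and at most 20, the latter in Vangl2 mutant replicate 1 at P2. A count of 0 allows up to 3 reads, by counting error only, so neither gene can be called absent or changed at this depth.

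Orm1 and Orm2 encode alpha-1-acid glycoproteins, which carry lipophilic molecules in plasma. Orm1 was at 14.7, 15.2 and 14.4 in controls and at 971, 124 and 252 in mutants. The control lungs were almost alike, and the mutants were spread over a wide range without reaching them (log2 fold change 4.31, SE 0.65, adjusted p = 0.0295). Orm2 was at 21.1, 30.3 and 23.9 in controls and 351, 75.7 and 87.6 in mutants. Mutant replicate 1 was far above the other mutants for both genes (log2 fold change 2.37, SE 0.55, adjusted p = 0.0589 for Orm2).

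The iron and hemoglobin binders were already well expressed in control lungs. Lcn2, which captures the siderophores that bacteria use to gather iron, was at 1638, 1031 and 1037 in controls and 17109, 3036 and 10614 in mutants. Mutant replicate 2 was the closest to the controls and still above all of them (log2 fold change 2.77, SE 0.56, adjusted p = 0.0411). Hp, the scavenger of free hemoglobin, was at 3632, 3324 and 3076 in controls and 14048, 6857 and 13834 in mutants. Mutant replicate 2 was again the lowest of its group and above all controls (log2 fold change 1.72, SE 0.26, adjusted p = 0.0295). Cp, a copper protein that oxidizes iron for export, was at 2164, 1899.7 and 2783 in controls and 7715, 5452 and 7124 in mutants. It had the smallest change of the group and the tightest standard error (log2 fold change 1.57, SE 0.18, adjusted p = 0.0248).

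Itih4, a heavy chain of the family whose other members bind hyaluronan and which is itself cleaved by kallikrein, was at 379, 287 and 141 in controls and 2282, 735 and 1425 in mutants. The lowest mutant lung lay above the highest control (log2 fold change 2.42, SE 0.46, adjusted p = 0.0365). Lrg1, a glycoprotein that modulates transforming growth factor beta signaling in endothelium, was at 249, 183 and 159 in controls and 1304, 598 and 1397 in mutants. Mutant replicates 1 and 3 were close together and replicate 2 lower (log2 fold change 2.41, SE 0.33, adjusted p = 0.0286).

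**Figure D1:**
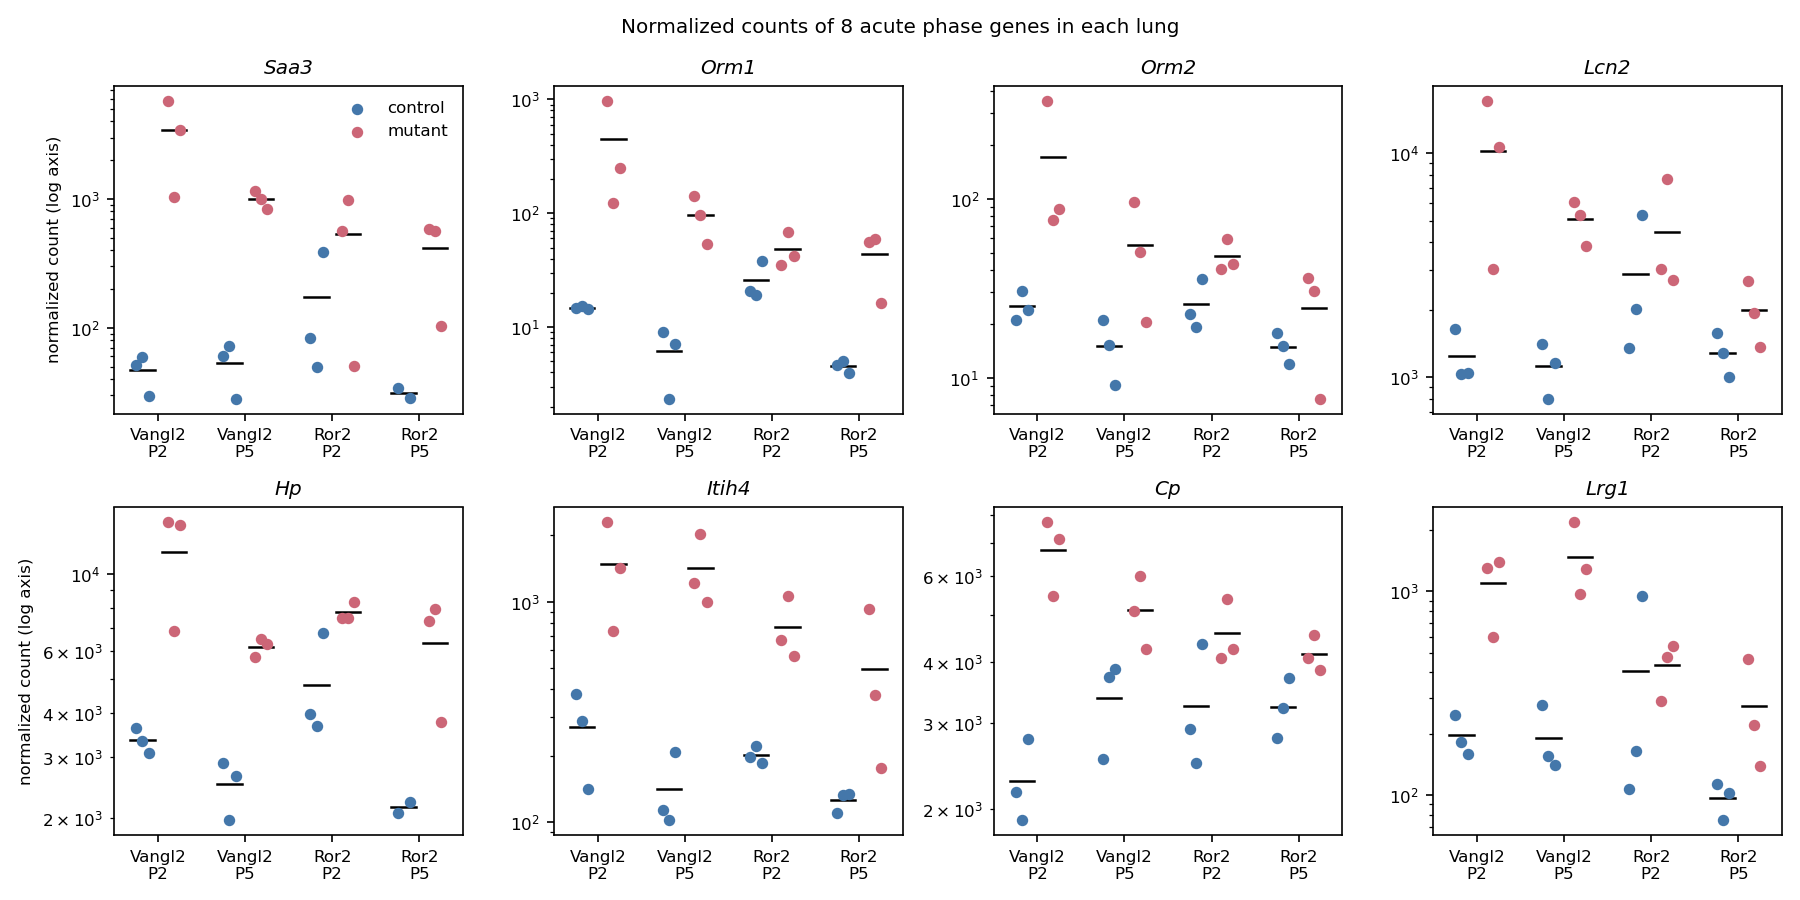
Normalized counts (log axis) of the 8 tested acute phase genes in each lung, with controls in blue, mutants in red and a black line at each group mean, for the 4 comparisons on the horizontal axis. At P2 all 3 Vangl2 mutants lie above all 3 controls for 8 of 8 genes, while in the P2 Ror2 comparison this holds for 3 of 8.

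The mutant lungs kept much the same order from gene to gene. Vangl2 P2 mutant replicate 1 was the highest mutant for 7 of 8 members and replicate 2 the lowest for 8 of 8. The sum of the 10 members took 0.0345% to 0.0403% of a control lung's normalized counts and 0.231%, 0.0884% and 0.181% in mutant replicates 1 to 3. Without control replicate 1, 3 members were called, and without control replicate 2 or 3, 0 were called, while calls over all genes went from 626 to 122, 1 and 1. Without mutant replicates 1, 2 or 3, 6, 6 and 8 members were called, and 536, 33 and 2333 of all genes. The members' log2 fold changes stayed between 1.45 and 6.59 over these 6 fits. With no filter on low values 0 members were called as well, against 7 by edgeR and 8 by DESeq2 on the recovered reads. The calls of edgeR and DESeq2 over all genes are not given here, so their member counts lack a background.

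Compared per kilobase of reference transcript, Hp was the most abundant member in P2 Vangl2 control lungs, at 2486 ± 207 normalized counts per kilobase (mean ± SD, n = 3), followed by Lcn2 at 1350.1 ± 381 and Cp at 558 ± 111. Lrg1 (139.8 ± 32.9), Itih4 (90.3 ± 40.3) and Saa3 (84.7 ± 28.0) came next and overlapped within their SD for Itih4 and Saa3. Orm2 (32.4 ± 6.13) and Orm1 (19.0 ± 0.521) were the lowest of the tested members. In the mutants the order per kilobase became Lcn2 (11206 ± 7698), Hp (8609 ± 3042) and Saa3 (6148 ± 4271), which did not differ beyond their spread. Cp was at 1653 ± 287, and Lrg1, Orm1 and Itih4 overlapped at 781 ± 310.3, 579 ± 589 and 497 ± 260.2.

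At P5, 6 of the same 8 tested genes rose in Vangl2 mutants: Saa3, Orm1, Lcn2, Hp, Itih4 and Lrg1, from 2.51-fold for Hp to 19.4-fold for Saa3. Cp and Orm2 were 1.53-fold and 3.09-fold higher and did not pass. Among all 17410 genes tested 0.534% were called higher. These calls come from a fit without a block on replicate number. With that block, calls over all genes in either direction went from 98 to 1558. Every mutant lung lay above every control lung for 7 of the 8 members, against 13.2% of all genes, the exception being Orm2. The members' median log2 fold change was 2.56, beside 0.00 over all genes.

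Saa3 was at 60.2, 72.9 and 28.2 in P5 controls and 1147, 992 and 841 in Vangl2 mutants. The mutant lungs were much closer to each other than at P2, and far above the controls (log2 fold change 4.28, SE 0.34, adjusted p = 0.0121). Saa1 had 0 reads in all 3 controls and normalized counts of 1.83, 0 and 8.94 in mutants, and Saa2 was at 0 in all 6 lungs. Orm1 was at 9.12, 2.35 and 7.05 in controls and 142, 96.3 and 53.6 in mutants, without overlap (log2 fold change 3.81, SE 0.54, adjusted p = 0.0316). Orm2 was at 21.0, 15.3 and 9.07 in controls and 95.3, 50.4 and 20.6 in mutants. The lowest Orm2 mutant fell just short of the highest control (log2 fold change 1.63, SE 0.58, adjusted p = 0.197). Lungs of the same number deviated together at P5 (r of 0.384, 0.340 and 0.241 over genes), and Orm2 passed as well in a limma fit that blocks on that number (adjusted p = 0.0380). In that fit 1558 of all genes were called in either direction, against 98 without the block.

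Lcn2 was at 1399, 801 and 1159.9 in P5 controls and 6069, 5295 and 3829 in Vangl2 mutants. All 3 mutants stood clear of the controls (log2 fold change 2.19, SE 0.24, adjusted p = 0.0148). Hp was at 2878, 1972 and 2645 in controls and 5764, 6502 and 6305 in mutants, with little spread among the mutants (log2 fold change 1.32, SE 0.17, adjusted p = 0.0202). Cp was at 2529.9, 3719 and 3875 in controls and 5088, 5992 and 4258 in mutants. The highest Cp control came near the lowest mutant without reaching it (log2 fold change 0.61, SE 0.21, adjusted p = 0.179). Itih4 was at 114, 102 and 209 in controls and 1215, 2024 and 995 in mutants, and it had the largest P5 change after Saa3 and Orm1 (log2 fold change 3.31, SE 0.34, adjusted p = 0.0141). Lrg1 was at 276, 156 and 141 in controls and 2181, 968 and 1294 in mutants, with mutant replicate 1 the highest (log2 fold change 2.93, SE 0.34, adjusted p = 0.0148).

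Together the members took 0.0354% to 0.0440% of a P5 control lung's normalized counts and 0.106% to 0.121% of a Vangl2 mutant's. Mutant replicate 1 was the highest mutant for 5 members and replicate 3 the lowest for 6. Without control replicates 1, 2 or 3, 5, 1 and 2 members were called, and without mutant replicates 1, 2 or 3, 1, 4 and 0. Calls over all genes in the same fits were 41, 5 and 19, and 7, 54 and 0, against 98 with all lungs. With no filter on low values 0 were called. No member changed direction in any of these fits.

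**Figure D2:**
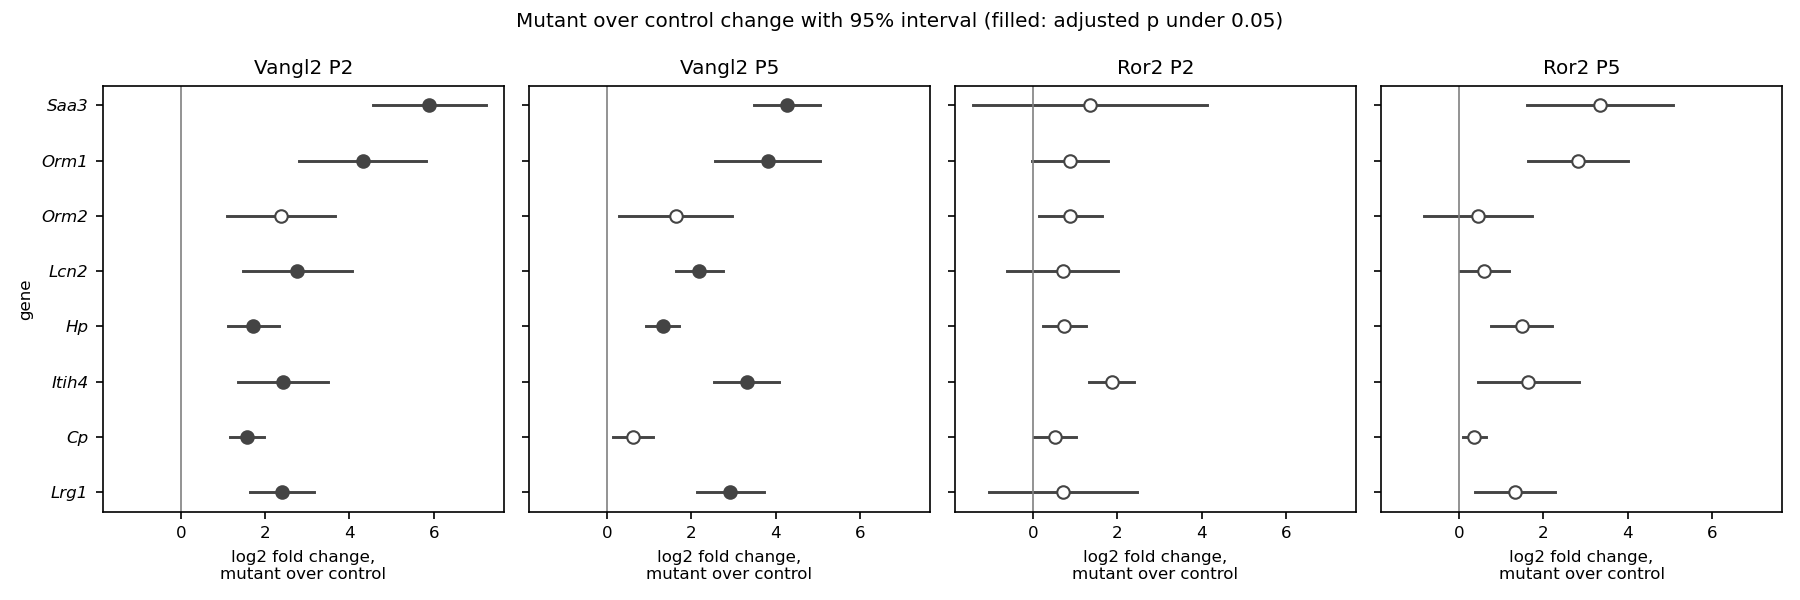
Log2 fold change of each of the 8 tested members (mutant over control, horizontal axis) with its 95% interval from limma, for the 4 comparisons, and filled circles for an adjusted p under 0.05. In the Vangl2 comparisons 7 members passed at P2 and 6 at P5, and in the Ror2 comparisons all 8 estimates lie above 0 with 0 passed.

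In Ror2 mutant lungs at P2, all 8 tested members were higher on average, from 1.44-fold for Cp to 3.66-fold for Itih4, and 0 passed the adjusted threshold. By limma 0% of the 17541 genes tested were called higher, with 3380 genes at an unadjusted p under 0.05, of which 4 were members. DESeq2 on the recovered reads called 2 members, Hp and Itih4, and edgeR 0. The calls of DESeq2 over all genes are not given here, so these calls are not shown to be particular to the members. For 3 members (Orm2, Hp and Itih4) every mutant lay above every control, against 13.4% of all genes. The members' median log2 fold change was 0.81, beside -0.01 over all genes.

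Saa3 was at 83.5, 49.6 and 391 in the P2 Ror2 controls and 561, 986 and 50.4 in the mutants. Control replicate 3 was well above its group and mutant replicate 3 was as low as the other controls, so the groups overlapped (log2 fold change 1.36, SE 1.18, 95% interval -1.41 to 4.14, adjusted p = 0.534). Saa1 and Saa2 had at most 2 reads in any of the 6 lungs. Orm1 was at 20.6, 19.3 and 38.2 in controls and 34.9, 68.3 and 42.0 in mutants, with control replicate 3 above the lowest mutant (log2 fold change 0.88, SE 0.38, 95% interval -0.02 to 1.78, adjusted p = 0.266). Orm2 was at 22.7, 19.3 and 35.4 in controls and 40.6, 59.7 and 43.1 in mutants, without overlap (log2 fold change 0.89, SE 0.32, 95% interval 0.14 to 1.64, adjusted p = 0.222).

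Lcn2 was at 1354, 2020.2 and 5298 in the P2 Ror2 controls and 3021, 7654 and 2703 in the mutants. Control replicate 3 exceeded all mutants but replicate 2 (log2 fold change 0.70, SE 0.56, 95% interval -0.62 to 2.03, adjusted p = 0.502). Hp was at 3962, 3675 and 6769 in controls and 7489, 7483 and 8294 in mutants. The mutants were close together and just above control replicate 3 (log2 fold change 0.75, SE 0.22, 95% interval 0.23 to 1.26, adjusted p = 0.203). Cp was at 2918, 2483 and 4355 in controls and 4077, 5388 and 4253 in mutants, with overlap again through control replicate 3 (log2 fold change 0.52, SE 0.21, 95% interval 0.03 to 1.02, adjusted p = 0.246).

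Itih4 was the clearest member in this comparison, at 198, 222 and 185 in controls and 672, 1058 and 568 in mutants. Its controls lay within a narrow range and all mutants far above it (log2 fold change 1.87, SE 0.23, 95% interval 1.34 to 2.40, adjusted p = 0.203). Lrg1 was at 107, 165 and 946 in controls and 291, 476 and 539 in mutants, and control replicate 3 was the highest of all 6 lungs (log2 fold change 0.71, SE 0.75, 95% interval -1.04 to 2.46, adjusted p = 0.608).

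Control replicate 3 was the highest control for 7 of the 8 members, with Itih4 the exception. The members took 0.0972% of its normalized counts, against 0.0463% and 0.0475% in the other controls and 0.0831% to 0.125% in mutants. Neutrophil markers summed to 31062 normalized counts in it, against 5916 and 8566 in the other controls and 7328 to 9649 in mutants. Its part in the result was measured by leaving it out. Without it, Saa3 had a log2 fold change of 2.22, Lcn2 of 1.26 and Lrg1 of 1.65, and still 0 members were called (limma adjusted p = 0.256 for Hp, the lowest of the members). Without mutant replicate 2, 1 member was called, Itih4 (adjusted p = 0.0375), among 859 of all genes called in that fit.

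At P5, all 8 tested members were again higher on average in Ror2 mutants, from 1.29-fold for Cp to 10.1-fold for Saa3, and 0 passed. Across all 17179 genes 0.064% were called higher. Every mutant lay above every control for 6 members, against 15.6% of all genes, with Orm2 and Lcn2 the exceptions. For Saa3 and Hp, among these 6, only 2 controls had a value, which makes full separation easier to reach. The 15.6% likewise covers genes with 2 controls and genes with 3. The members' median log2 fold change was 1.41, beside 0.00 over all genes, and 7 of the 8 members had an unadjusted p under 0.05, as did 3161 of the 17179 genes.

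Saa3 was at 34.1 and 28.8 in the 2 P5 Ror2 controls with a value and 589, 566 and 104 in the mutants. Mutant replicate 3 was much lower than the other mutants and still above both controls (log2 fold change 3.34, SE 0.73, 95% interval 1.61 to 5.07, adjusted p = 0.126). Saa1 had 0 reads in all 5 lungs with a value, and Saa2 had 1 read in mutant replicate 1. Orm1 was at 4.66, 5.02 and 3.97 in controls and 56.0, 59.5 and 16.2 in mutants, with the same low mutant (log2 fold change 2.82, SE 0.51, 95% interval 1.64 to 3.998, adjusted p = 0.0878). Orm2 was at 17.7, 15.1 and 11.9 in controls and 35.9, 30.3 and 7.63 in mutants. For Orm2, mutant replicate 3 was below all controls (log2 fold change 0.45, SE 0.55, 95% interval -0.83 to 1.74, adjusted p = 0.680).

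Lcn2 was at 1571, 1285 and 1002 in the P5 Ror2 controls and 2691, 1932 and 1366 in the mutants, which overlapped (log2 fold change 0.60, SE 0.25, 95% interval 0.02 to 1.18, adjusted p = 0.257). Hp was at 2064 and 2229 in 2 controls and 7313, 7943 and 3758 in mutants. The change of Hp was close to that in the P5 Vangl2 comparison, with a wider error (log2 fold change 1.49, SE 0.30, 95% interval 0.77 to 2.21, adjusted p = 0.119). Cp was at 2792, 3227 and 3701 in controls and 4077, 4550.2 and 3848 in mutants, a small step with no overlap (log2 fold change 0.37, SE 0.11, 95% interval 0.10 to 0.63, adjusted p = 0.179). Itih4 was at 110.1, 133 and 135 in controls and 929, 376 and 176 in mutants. Its mutants covered a wide range, from just above the controls upward (log2 fold change 1.65, SE 0.51, 95% interval 0.46 to 2.84, adjusted p = 0.179). Lrg1 was at 114, 75.3 and 102 in controls and 466, 220.4 and 138 in mutants, again with replicate 3 the lowest mutant (log2 fold change 1.33, SE 0.41, 95% interval 0.39 to 2.27, adjusted p = 0.177).

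Ror2 P5 mutant replicate 3 was the lowest mutant for 8 of 8 members. Ror2 itself was at 362, 440 and 521 normalized counts in mutant replicates 1 to 3, against 368 to 597 in controls. Replicates 2 and 3 thus lay within the control range. Whether the Ror2 level bears on the member values was not tested. The members took 0.0497% of the normalized counts of replicate 3, against 0.0878% and 0.0840% in the other mutants and 0.0351% and 0.0374% in the controls with all members. Without this lung 5 members were called: Saa3 and Hp (adjusted p = 0.00286 for both), Orm1 (0.00904), Itih4 (0.0292) and Lrg1 (0.0410). In that fit 830 of all genes were called, against 22 with all lungs. Leaving out any other lung gave 0 member calls, and so did control replicate 1 used as deposited.

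**Figure D3:**
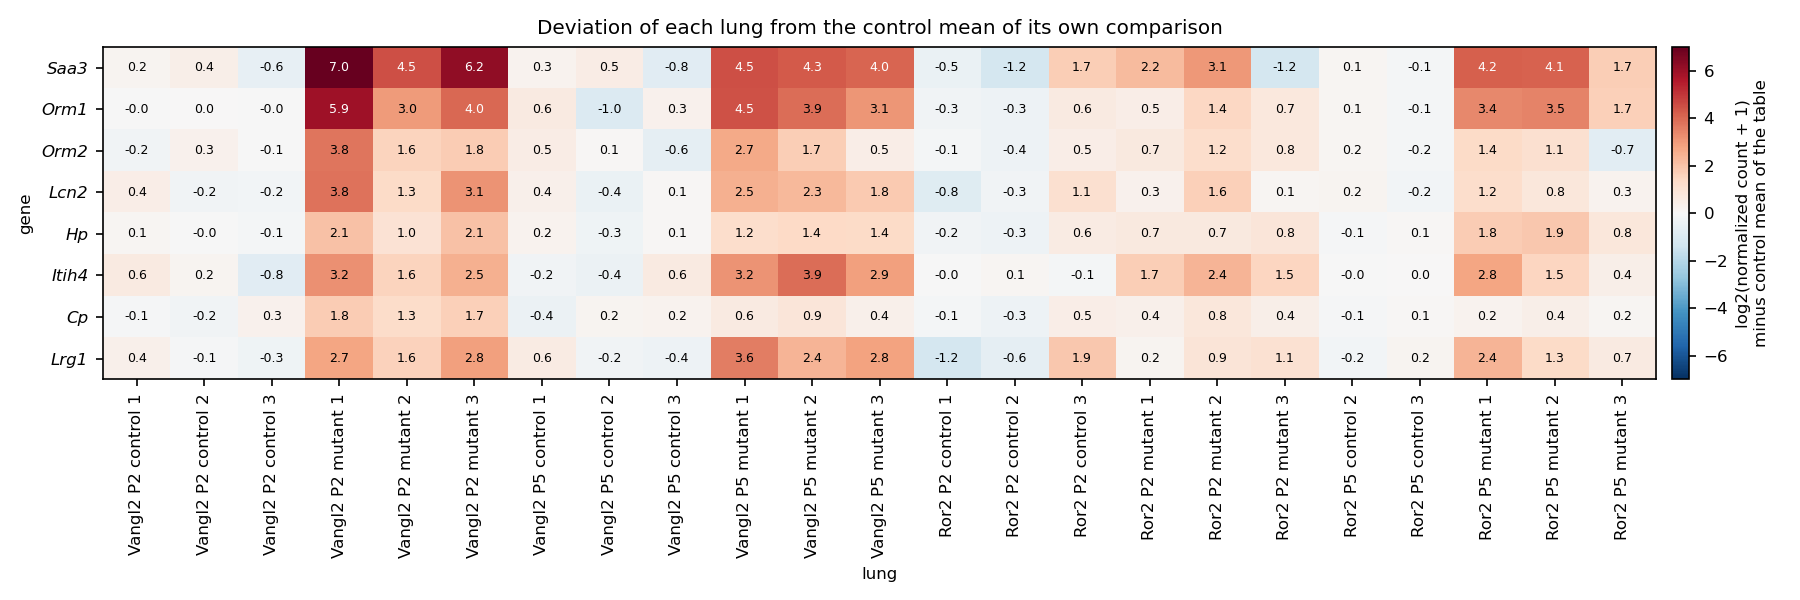
Deviation of log2(normalized count + 1) of each tested member (rows) in each of 23 lungs (columns) from the control mean of the same comparison, in color and numbers. Averaged over members, the Vangl2 mutants lie at 1.98 to 3.79 at P2 and 2.10 to 2.83 at P5, the Ror2 mutants at 0.53 to 1.51 and 0.61 to 2.17, and control replicate 3 of the P2 Ror2 comparison at 0.84.

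Each mutant effect was then set against the others with limma, every effect being taken against the controls of its own table. At P2 the effect in Ror2 mutants minus that in Vangl2 mutants was below 0 for 8 of 8 members, and 0 passed the adjusted threshold (adjusted p between 0.946 and 0.976), as did 0% of the 17137 genes tested. Over all genes the median difference was -8.4e-06 at P2 and 0.023 at P5. The P2 contrast includes Ror2 control replicate 3, the highest control for 7 of 8 members. With 1 lung left out no member changed sign at P2, and Lrg1 ranged from -2.32 to -0.75 and Itih4 from -0.98 to -0.14. An unadjusted p under 0.05 was reached by 5 members and by 788 genes in all. The largest differences were those of Saa3 (-4.53, 95% interval -7.76 to -1.30) and Orm1 (-3.43, -5.26 to -1.60). Cp differed by -1.05 (-1.71 to -0.39), and Itih4 by -0.55, with an interval of -1.84 to 0.73 that includes 0. At P5 the difference was below 0 for 7 of 8 members, 0 passed (adjusted p between 0.512 and 0.998), 0.0118% of all 16887 genes passed, and 3 members and 798 genes in all had an unadjusted p under 0.05. Lcn2 had the smallest unadjusted p of the members, with a difference of -1.58 (-2.43 to -0.74, adjusted p = 0.512). Itih4 differed by -1.67 (-3.17 to -0.16) and Lrg1 by -1.60 (-2.89 to -0.30). For Hp the estimate was 0.16, with an interval of -0.65 to 0.97. With the replicate block, which the P5 Vangl2 lungs call for, 0 members passed in this contrast as well, and the lowest adjusted p was that of Lcn2 (0.125). So a difference between the genotypes was not shown for any single member at the adjusted threshold, and for most members the intervals do not exclude a sizeable one.

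Between the ages, the Vangl2 effect at P5 minus that at P2 was below 0 for 6 of 8 members, and 0 passed (adjusted p between 0.577 and 0.887). The median of this difference over all genes was 0.018. Of the 17068 genes tested 0% passed, and 1442 of them, 1 a member, had an unadjusted p under 0.05. Cp had the clearest difference, -0.96 (95% interval -1.59 to -0.33). With the replicate block 0 members passed as well, and Cp again had the lowest adjusted p (0.277). Saa3 differed by -1.62 (-3.24 to 0.01), while Itih4 and Lrg1 had estimates above 0, at 0.89 (-0.50 to 2.28) and 0.52 (-0.62 to 1.67). The Ror2 effect at P5 minus that at P2 was above 0 for 4 members and below 0 for 4, with 0 passed (adjusted p between 0.456 and 0.974) and 0% of the 16990 genes tested, of which 1616, again with 1 member, had an unadjusted p under 0.05. Orm1 was the member with the smallest p, at 1.94 (0.47 to 3.41). Exact two-sided permutation tests of single members within a comparison could not go below p = 0.1 with 3 mutants against 3 or 2 controls, and for Saa3 and Hp in the P5 Ror2 comparison, with 2 controls, the exact p was 0.2.

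**Figure D4:**
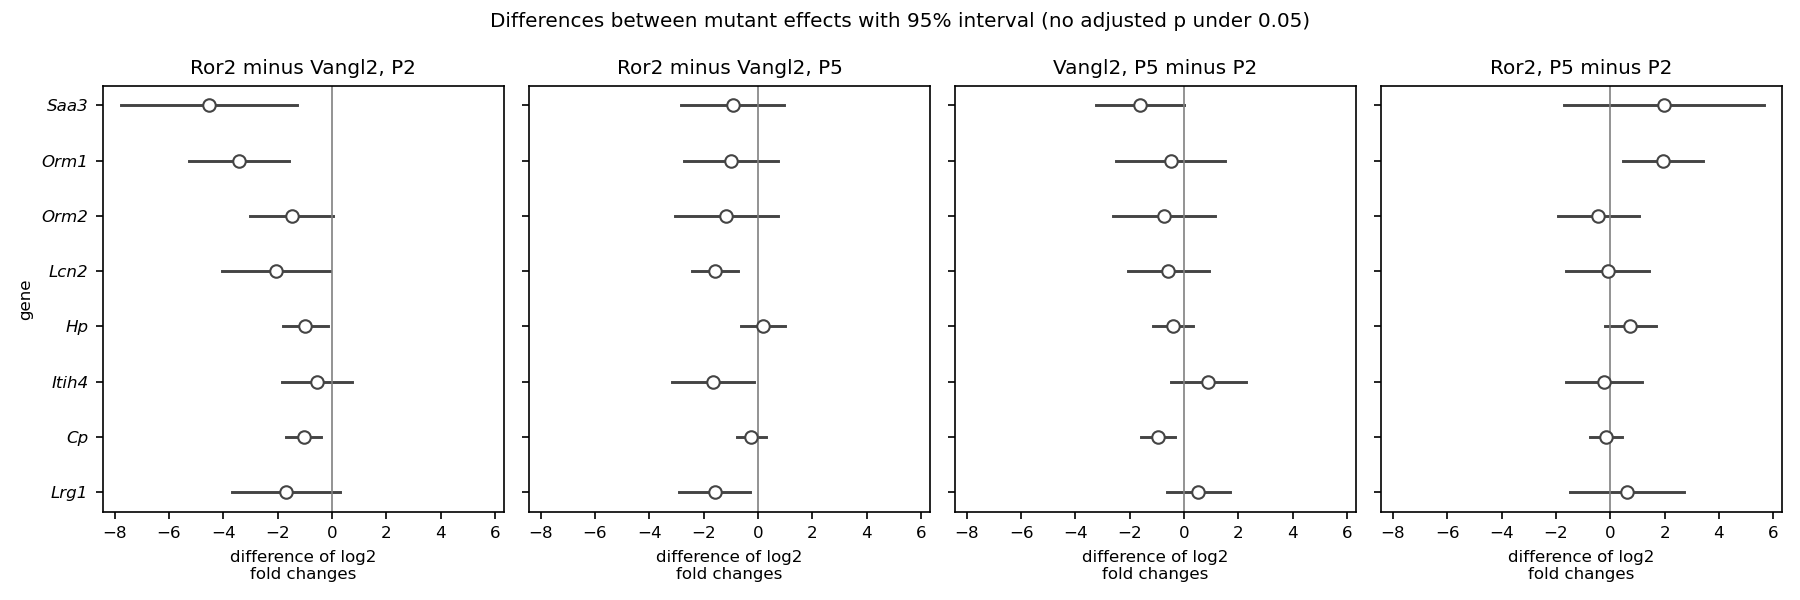
Difference between mutant effects on the log2 scale (horizontal axis) with its 95% interval for the 8 tested members, in 4 contrasts of genotype or age. At P2 all 8 estimates of Ror2 minus Vangl2 lie below 0, from -4.53 for Saa3 to -0.55 for Itih4, and in no contrast did a member pass the adjusted threshold.

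Promoter windows from RefSeq (build GRCm38.p6, which is mm10, from 250 bases before to 50 after a start site) were available for 8 of the 10 members, with 9 windows in all. The letters TTGCNNAA, a core that C/EBP factors are known to bind, were found on either strand in windows of 6 of these 8 members (Saa1, Saa2, Saa3, Orm2, Lcn2 and Cp), against 10.8% of 32851 promoter windows of the same length. TTCNNNGAA, the core bound by STAT factors, was in the window of 1 member, Itih4, against 8.30%, and the kappa B motif of NF-kB was in 0, against 8.46%. The windows of Saa1 and Saa2 are 95.3% identical, and that of Saa3, the serum amyloid gene that rose in Vangl2 mutants, is 50.1% identical to that of Saa1. They are printed with the matched letters in capitals to show that the serum amyloid genes with almost no reads and Saa3 hold the same core at different places: 182 bases before the start in Saa1, 183 in Saa2 and 99 in Saa3, where it lies on the opposite strand. Saa1 is at chr7:46742931-46743230 and Saa3 at chr7:46715627-46715926, both on the minus strand, and Saa2 is at chr7:46751583-46751882 on the plus strand.
Saa1: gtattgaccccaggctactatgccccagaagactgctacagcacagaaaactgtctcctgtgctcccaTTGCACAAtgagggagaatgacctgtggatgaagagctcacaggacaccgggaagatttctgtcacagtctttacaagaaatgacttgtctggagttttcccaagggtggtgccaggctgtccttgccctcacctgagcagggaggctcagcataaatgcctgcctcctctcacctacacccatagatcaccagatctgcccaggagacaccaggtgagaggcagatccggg
Saa2: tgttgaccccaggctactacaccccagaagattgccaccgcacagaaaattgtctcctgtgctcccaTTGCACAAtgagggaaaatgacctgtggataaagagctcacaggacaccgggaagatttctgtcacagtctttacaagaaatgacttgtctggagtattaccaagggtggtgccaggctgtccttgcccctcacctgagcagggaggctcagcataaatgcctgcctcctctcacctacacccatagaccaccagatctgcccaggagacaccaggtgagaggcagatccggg
Saa3: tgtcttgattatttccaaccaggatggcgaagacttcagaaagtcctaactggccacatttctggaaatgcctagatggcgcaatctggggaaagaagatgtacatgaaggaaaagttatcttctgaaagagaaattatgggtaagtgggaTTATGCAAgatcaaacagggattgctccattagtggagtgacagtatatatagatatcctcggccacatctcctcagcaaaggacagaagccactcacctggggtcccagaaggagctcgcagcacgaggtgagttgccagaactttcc

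The next windows are those of Lcn2 and Itih4, which rose at both ages in Vangl2 mutants, and of Orm2. The core begins 216 bases before the start in Lcn2 and 120 bases before it in Orm2, where it reads the same on both strands. In Itih4, which had no C/EBP core in its window, the STAT core in capitals begins 51 bases before the start. A match of letters is a description and does not show that a factor binds there. Lcn2 is at chr2:32387690-32387989 on the minus strand, Orm2 at chr4:63362199-63362498 and Itih4 at chr14:30886226-30886525, both on the plus strand.
Lcn2: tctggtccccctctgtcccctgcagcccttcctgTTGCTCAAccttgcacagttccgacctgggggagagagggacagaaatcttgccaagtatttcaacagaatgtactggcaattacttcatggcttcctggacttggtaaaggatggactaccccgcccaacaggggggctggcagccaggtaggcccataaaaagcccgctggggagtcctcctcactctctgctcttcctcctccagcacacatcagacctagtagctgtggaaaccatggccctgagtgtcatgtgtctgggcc
Orm2: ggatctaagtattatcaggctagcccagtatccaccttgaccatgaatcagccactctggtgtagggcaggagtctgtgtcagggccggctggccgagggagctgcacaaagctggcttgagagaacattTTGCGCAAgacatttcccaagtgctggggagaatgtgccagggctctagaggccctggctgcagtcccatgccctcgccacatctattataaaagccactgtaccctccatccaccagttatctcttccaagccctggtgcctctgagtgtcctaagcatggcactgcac
Itih4: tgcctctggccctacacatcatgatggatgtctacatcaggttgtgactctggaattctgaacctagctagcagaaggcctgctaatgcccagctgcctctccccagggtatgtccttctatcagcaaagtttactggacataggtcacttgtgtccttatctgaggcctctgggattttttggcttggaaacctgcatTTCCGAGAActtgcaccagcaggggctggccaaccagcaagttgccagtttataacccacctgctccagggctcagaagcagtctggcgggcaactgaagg

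The wider acute phase program was followed with a list of 30 other acute phase proteins known to increase. In Vangl2 mutants at P2, 6 of 24 tested rose and 0 fell, with a median log2 fold change of 1.61. They include Cfb, the factor B protease of complement (327 normalized counts in controls on average against 1733 in mutants, adjusted p = 0.00379). Lbp, which hands lipopolysaccharide to its receptor, was at 937 against 1679.5 (adjusted p = 0.0265), and Itih3, a relative of Itih4, at 13.7 against 49.1 (adjusted p = 0.0326). At P5, 4 of 23 rose, led by Pglyrp1, a bactericidal peptidoglycan binder (199.5 against 1006), the interleukin 1 receptor antagonist Il1rn (108 against 442) and again Cfb (254 against 1110.4). In the Ror2 comparisons 0 of 25 and 0 of 23 passed, with medians of 0.43 and 0.25. The most abundant there, Fn1, a matrix fibronectin, had a log2 fold change of -0.15 at P2 and -0.30 at P5, and complement C3 0.53 and 1.00. Of 12 plasma proteins known to fall in the acute phase response, 7 and 8 could be tested in the Vangl2 comparisons at P2 and P5 and 9 in each Ror2 comparison, and 0 of these passed, with medians of 0.11, -1.29, -0.36 and -0.41. At P5 this list summed to 8697, 10397 and 14507 in Vangl2 control replicates 1 to 3, and to 7417 to 11362 in mutants. Control replicate 3 also had hepatocyte markers summing to 5815, against 66.6 and 128 in the other controls. The part of this lung in the median of -1.29 was not tested. The most abundant of the list, the iron carrier transferrin (Trf), was at 5747 against 6264 in the P2 Vangl2 comparison, and Igf1 at 3050 against 3320.4.

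Among the signals that induce these genes, 0 of the 10 tested cytokines passed in any comparison. Il1b, for interleukin 1 beta, was at 94.8 to 161 in P2 Vangl2 controls and 137 to 2151 in mutants (adjusted p = 0.324), and at 68.2 to 101 against 170.1 to 349 at P5 (adjusted p = 0.0754). Ctf1, for cardiotrophin 1, was at 144 against 175 at P2. Il6, named here after its values were seen, was at 0 to 1.05 against 2.95 to 202 in the P2 Vangl2 comparison (adjusted p = 0.230). The cytokines summed to 602, 752 and 4336 normalized counts in P2 Vangl2 mutant replicates 1 to 3, against 538 to 606 in controls. The part of these cytokines in the member changes was not tested. In the P2 Ror2 comparison Il1b was at 114 against 233 on average. In the Ror2 comparisons the list's medians were 0.60 at P2 and -0.18 at P5.

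Receptors and signal transducers of these cytokines gave 0 calls among 20 genes in each comparison, with medians between -0.02 and 0.42. Il6st, the shared receptor subunit of the interleukin 6 family, was at 4799 against 6512 in the P2 Vangl2 comparison, and the kinase Jak1, the next most abundant, at 4918 against 5169. Cebpd, which encodes a C/EBP factor and is named after its values were seen, was at 774 against 3946 there (adjusted p = 0.0611), and the receptors Il6ra and Osmr, named likewise, had log2 fold changes of 1.46 and 1.30 (adjusted p = 0.108 and 0.0701). Feedback and immediate target genes likewise gave 0 calls among 12, with medians of 1.09 and 0.40 in Vangl2 and 0.50 and -0.16 in Ror2 mutants at P2 and P5. Icam1, an adhesion receptor for leukocytes, was at 3892 against 8696 in Vangl2 mutants at P2 (adjusted p = 0.0633) and Nfkbia, the inhibitor that NF-kB induces, at 1279.9 against 4462 (adjusted p = 0.0776). Of 26 receptors and partners of the members, 1 rose, Fpr2 in Vangl2 mutants at P5, a chemoattractant receptor that serum amyloid A engages (63.5 to 97.6 in controls, 360.1 to 499 in mutants, adjusted p = 0.0141). In the other comparisons 0 passed. The most abundant of this list in P2 Vangl2 lungs were Ager, a receptor of alveolar type I cells, with a log2 fold change of 0.45, and the ferritin chain Fth1, with 0.79 (adjusted p = 0.0561).

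Markers of cells that make or carry these proteins moved with the Vangl2 groups. At P2, 8 of 11 neutrophil markers rose, and their sum was 4065 to 6239.9 in controls and 12012 to 15847 in mutants. At P5, 4 of 11 rose, with sums of 3985 to 5697 and 12144 to 27549.8. The most abundant, S100a9, was at 1314 against 3322 at P2 and 1374 against 6509 at P5, followed by Ngp. In Ror2 mutants 0 neutrophil markers passed, and the sums overlapped at both ages. In Vangl2 mutant replicates 1 to 3 the neutrophil sums were 12012, 12999 and 15847 at P2 and 12144, 19089 and 27549.8 at P5. The part of neutrophils in the member changes was not tested.

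Airway epithelial markers differed as well. Secretory airway markers such as Scgb3a1 and Muc5b, of a list that shares Ltf with the neutrophil list, had 3 of 8 called higher in Vangl2 mutants at P2, 1 of 8 at P5, and 2 of 7 in Ror2 mutants at P5. Their sums were 588 to 7879 against 9194 to 27589.9, 450.2 to 4401 against 13609.7 to 35428, and 30.1 to 66.5 against 310.1 to 1839 in those comparisons, the last over only 5 of the 8 genes, those with a value in every lung. In the P2 Ror2 comparison the sums were 682, 19421 and 31229 in control replicates 1 to 3 and 942 to 1728 in mutants, so the controls spanned a wide range. Club cell markers, led by Scgb1a1, had 1 of 6 called, in Vangl2 mutants at P2, with sums of 147253 to 184819 against 255712 to 294983, and they did not overlap in Vangl2 mutants at P5 (67960.3 to 126759 against 212134 to 258184) or Ror2 mutants at P5 (79993 to 93944 against 139193 to 258775, over 5 of the 6 genes). How far these lists bear on the member changes was not tested.

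Hepatocytes are the main source of acute phase proteins in plasma, and their markers gave 0 calls in any comparison. They summed to 94.8 to 127 normalized counts in P2 Vangl2 controls and 125 to 393 in mutants. Of the 8 tested there, 7 had a log2 fold change above 0, with a median of 1.00. Alb, named as a defining marker after its values were seen, was at 20.8 against 13.4 on average. The fibrinogen gene Fgb, named likewise, was at 0 in all 3 controls and at most at 2.95 in a mutant. The other fibrinogen genes Fga and Fgg, also named after their values were seen, were at 1.02 against 23.2 and 4.62 against 30.3 (limma adjusted p = 0.0602 and 0.229). At P5 the marker sums were 83.4 to 161 in Vangl2 mutants and 66.6, 128 and 5815 in controls. The sums were 104 to 155 against 129 to 256 at P2 and 11.9 to 38.2 against 26.7 to 55.0 at P5 in the Ror2 comparisons, the latter over 8 of the 12 genes, so the ages cannot be compared. Of the remaining lists, alveolar type II markers gave 3 of 9 called higher, and macrophage (1 of 9), mesothelial (1 of 8) and alveolar type I (1 of 8) markers 1 each, all in Vangl2 mutants at P2. Fibroblast (2 of 8) and erythroid (1 of 3) markers were called lower in the same comparison, as were 364 of all 17448 genes. Endothelial, adipocyte and cartilage markers gave 0 calls, and every list not named for a comparison gave 0 there. Some sums without calls still did not overlap in the P5 Vangl2 comparison. Macrophage sums were 16329 to 26359 in controls and 38875 to 51252 in mutants, and mesothelial sums 4874 to 7955 and 9322 to 11181. Fibroblast (151421 to 181758 against 73449 to 125334) and endothelial (70877 to 77906 against 42005 to 66087) sums were lower in mutants. Sftpc, the defining alveolar type II marker, was at 91779 normalized counts or more in every lung.

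**Figure D5:**
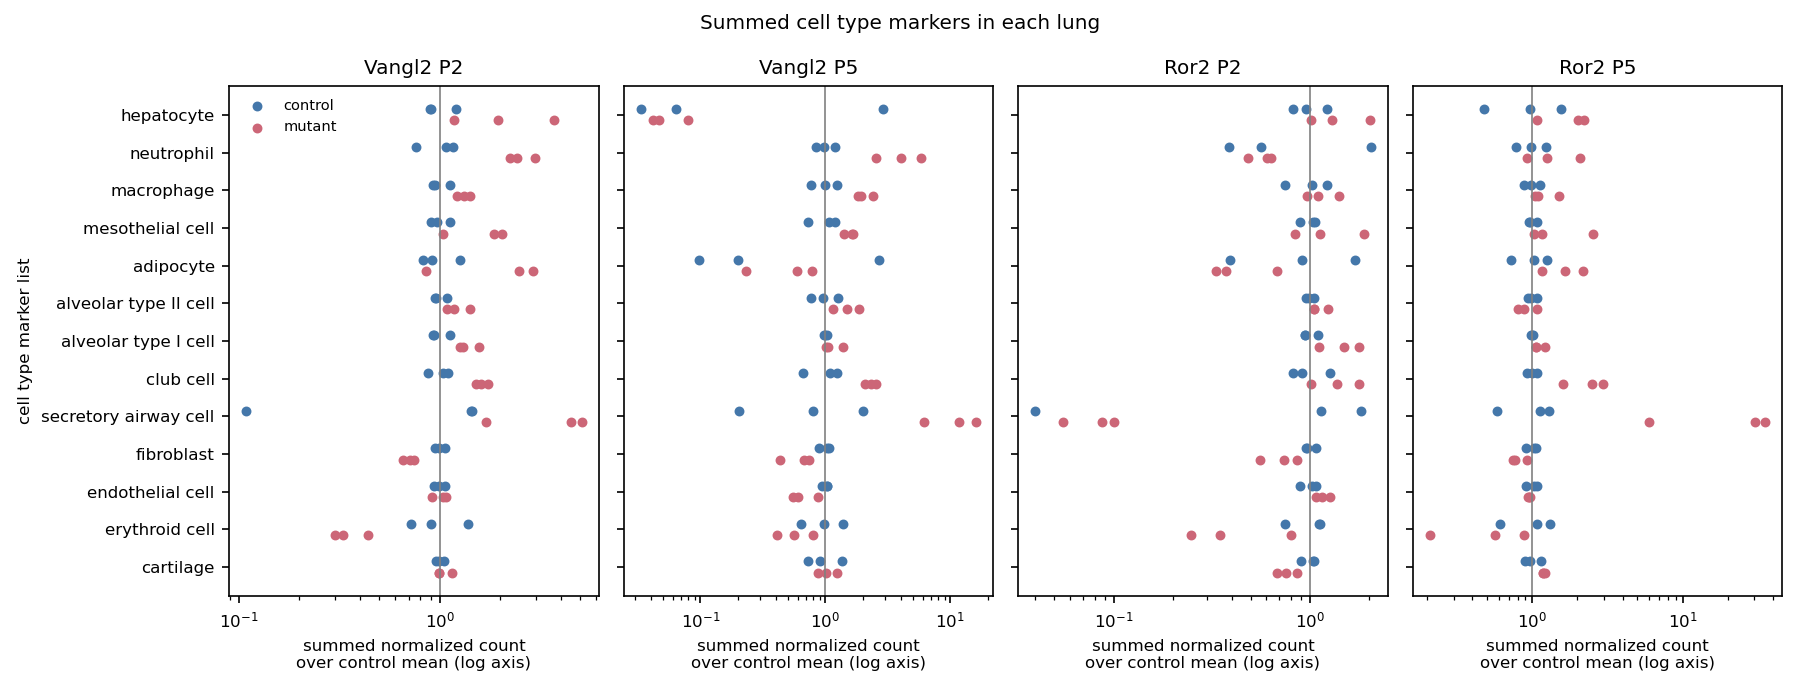
Summed normalized counts of each cell type marker list in each lung, divided by the control mean of the same comparison (log axis), with controls in blue and mutants in red. The neutrophil sums of the Vangl2 mutants lie above those of all their controls, while a P2 Ror2 control, at 31062, lies above all mutants of its comparison.

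Over the 23 lungs with values for all members, the genes outside the group whose deviations from the control mean followed the member mean most closely were Mlph (Pearson's r = 0.964), Cfb (0.927), Slc5a1 (0.921), Sftpd (0.913) and Galnt3 (0.913), of 16715 genes compared. Mlph links melanosomes and other granules to myosin, Slc5a1 is a glucose transporter, Sftpd is a surfactant collectin and Galnt3 starts mucin-type glycosylation. Mlph was at 263, 224 and 173 normalized counts in P2 Vangl2 controls and 762, 418 and 569 in mutants, so that mutant replicate 1 was the highest and replicate 2 the lowest, as for most members. The lungs come from 4 separately normalized tables and from mutant and control groups, so this likeness includes the group difference and is given as a description.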

How the data were processed

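The authors sequenced RNA of the left lung lobe and deposited, for each genotype and age, a table of normalized counts per gene and lung. The signal values as deposited by the authors are read counts scaled by the size factor of each library. The submitters' processing notes name DESeq2 and mm10, and the aligner, counter and gene annotation were not given in the sources used here. Columns with the authors' own means, fold changes, standard errors and p-values were not used. Tables were normalized separately, so tests were made within a table or on differences of within-table effects. No column of another series was used (0 were found).

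Control replicate 1 of the P5 Ror2 table was set to missing for 8085 genes of chromosomes 5 to 9 and X, and kept for 154 genes without a chromosome. Genes with at least 1 normalized count in at least 3 lungs were tested on log2(value + 1) with limma 3.58.1 (R 4.3.3, empirical Bayes with trend), two-sided, with p-values adjusted by Benjamini-Hochberg across every tested gene and a threshold of 0.05. Whole reads were recovered from the size factor steps in 21 of 24 lungs (tolerance 0.02, lowest share of whole values 100%), and edgeR 4.0.16 and DESeq2 1.42.0 were run on the P2 tables as alternatives. In 3 P5 lungs the step was too near 1 to be told from it, and the P5 tables were not tested that way. Other alternatives were a smaller and a larger pseudocount, no filter, scaling to the same upper quartile, a robust fit, the replicate block and leaving out each lung. The limma steps were tested on simulated data. The depth of 16178031 to 21546673 gene reads in complete lungs sets the precision of low genes, and a count of 0 allows 3 reads.

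The members were taken by name, and the members, gene lists and tests were chosen with earlier results of these data known. Named genes are all 10 members, up to 3 called genes a pathway list by lowest p or, with 0 called, those of highest mean level, the most abundant of a cell type list, and the 5 genes most like the members over 23 lungs. Lungs sharing a replicate number deviated together in the P5 Vangl2 table, with correlations of 0.384, 0.340 and 0.241, each above 0.1, and not in all pairs of the other tables. The labels do not say what the number marks. Sequences came from RefSeq (GRCm38.p6), and identities were computed with Biopython 1.88.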

Additional observations from a re-analysis of the deposited data

How the results depend on the processing

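Over the alternatives, 355 member log2 fold changes kept their direction and side of the threshold, 57 fell short of it, 12 newly passed and 0 reversed. Only a called member can fall short, so all 57 belong to members called in the Vangl2 comparisons. At P2 a called member fell short in 3 (Saa3, Cp and Lrg1) to 6 (Itih4) of 14 alternatives. At P5 this held for 2 (Saa3) to 7 (Orm1) of 12. With no filter on low values 0 members were called in Vangl2 mutants at P2 and at P5 (adjusted p of the members 0.116 to 0.216 at P2); the cause was not tested. DESeq2 called 2 members in Ror2 mutants at P2, against 0 by limma, and its calls over all genes are not given here. The cause of this difference was not tested. Leaving out each lung gave 0 to 8 called members in Vangl2 mutants at P2, 0 to 5 at P5, 0 to 1 in Ror2 mutants at P2 and 0 to 5 at P5. Some differences between effects changed sign when a lung was left out: Hp, Ror2 minus Vangl2 at P5 (-0.036 to 0.50), and Orm1, Vangl2 at P5 minus P2 (-1.16 to 0.32). For Ror2 at P5 minus P2 this held for Orm2 (-0.82 to 0.22), Lcn2 (-0.66 to 0.37), Itih4 (-0.84 to 0.36), Cp (-0.39 to 0.018) and Lrg1 (-0.32 to 1.24). With the replicate block, 7 members were called in Vangl2 mutants at P2, 7 at P5, and 0 in both Ror2 comparisons, and apart from Orm2 at P5 it added no member call. Over all genes, calls moved from 626 to 795 at P2 and from 98 to 1558 at P5 in Vangl2 mutants under that block, and in Ror2 mutants from 0 to 1 and from 22 to 1. With no filter they were 18, 22, 12 and 41. Depth limits Saa1 and Saa2, which could not be tested.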

Other observations

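Control replicate 3 of the P5 Vangl2 comparison stood apart in transcripts of other tissues. Its hepatocyte markers summed to 5815 normalized counts, against 66.6 and 128 in the other controls, with Alb at 3511 and Ahsg at 1286, and its adipocyte markers summed to 3644. Among the acute phase members, Saa3 (28.2), Orm2 (9.07) and Lrg1 (141) were the lowest of the 3 controls there, while Itih4 (209) and Cp (3875) were the highest, and the members took 0.0440% of its normalized counts, against 0.0371% and 0.0354% in the other controls. Without this lung, limma called Saa3 (log2 fold change 3.87) and Itih4 (3.63), while Orm1, Lcn2, Hp and Lrg1 kept log2 fold changes of 3.97, 2.23, 1.38 and 2.75 and did not pass.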
